A study of Homo sapiens with 4 samples.

Results

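The miR-200 family loci are the 2 places in the human genome that encode the microRNAs MIR200B, MIR200A and MIR429 on chromosome 1 and MIR200C and MIR141 on chromosome 12. Binding of SNAIL1 there was read from lists of ChIP-seq peaks in the colorectal adenocarcinoma line LS174T, an established human cell line. A peak belonged to a locus when its summit, the base with the most reads, lay in chr1:1090000-1115000 or in chr12:7060000-7085000 (build hg19). These windows contain the microRNA genes and the sequence around them. Members were selected on the summit positions of called peaks alone, and the windows were chosen with peaks of these data already known, so the presence of a peak in them is a description and was not tested. The rule found 8 of the 2177 peaks of the series, 4 in each list from induced cells. All 8 lay in the chromosome 1 window, and no library had a peak in the chromosome 12 window.

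All libraries came from LS174T cells carrying a construct from which doxycycline induces murine SNAIL1 with a hemagglutinin (HA) tag. In induced 1 and induced 2 the cells had received 0.1 mg/ml doxycycline for 6 h, and in uninduced 1 and uninduced 2 they had received none. Every library was precipitated with the same anti-HA antibody, so the ectopic mouse protein was mapped and not the cells' own SNAIL1, and DNA from chromatin that was not precipitated served as reference. The 2 libraries of a condition are described as biological replicates. The sources used here do not say whether the cells were 1 clone or a pool, nor whether each replicate was its own culture.

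The miR-200 family is a group of epithelial microRNAs. They bind the messenger RNAs of ZEB1 and ZEB2, repressors of epithelial genes, and lower their output, and ZEB1 in turn represses the transcription of the miR-200 genes, so that the microRNAs and the ZEB factors hold each other down. SNAIL1 is a zinc-finger repressor that starts epithelial-mesenchymal transition, the change of epithelial cells to a motile state, and it binds the E-box CAGGTG, which reads CACCTG on the other strand. A microRNA finds its targets mainly through its seed, bases 2 to 8 counted from its 5′ end.

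The mature sequences of the arm that carries the family's targeting activity are shown because they divide the members differently from their position in the genome. Capitals mark the seed, and the sequences are those of RefSeq (GRCh38.p14), where each of the 5 genes had an entry.
hsa-miR-200b-3p: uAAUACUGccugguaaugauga
hsa-miR-200c-3p: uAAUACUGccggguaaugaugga
hsa-miR-429: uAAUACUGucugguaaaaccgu
hsa-miR-200a-3p: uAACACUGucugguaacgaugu
hsa-miR-141-3p: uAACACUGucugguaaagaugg
The seed AAUACUG belonged to miR-200b, miR-200c and miR-429, and to no other of the 2545 mature entries of the table. The seed AACACUG belonged to miR-200a and miR-141 alone. The seeds differ at 1 base, U4C from miR-200b-3p to miR-200a-3p, with positions counted from the 5′ end. Each seed group has a member at either locus. The chromosome 1 locus, whose window held peaks, encodes miR-200b, miR-200a and miR-429. The chromosome 12 locus, whose window held none, encodes miR-200c and miR-141. Between the loci, miR-200b-3p and miR-200c-3p were identical at 20 of 22 positions, and miR-200a-3p and miR-141-3p also at 20 of 22.

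Each locus is transcribed as a longer RNA from which the hairpins are cut, and RefSeq names these host genes MIR200BHG and MIR200CHG. Their promoters, 250 bases before to 50 bases after the start site, are shown because SNAIL1 binding was compared between the loci. Capitals mark CACCTG, the E-box as read on the given strand. Both sequences are on the plus strand of GRCh38.p14, the first at chr1:1162627-1162926 and the second at chr12:6962995-6963294. These positions must not be set beside those of the peaks, which are in hg19.
MIR200BHG: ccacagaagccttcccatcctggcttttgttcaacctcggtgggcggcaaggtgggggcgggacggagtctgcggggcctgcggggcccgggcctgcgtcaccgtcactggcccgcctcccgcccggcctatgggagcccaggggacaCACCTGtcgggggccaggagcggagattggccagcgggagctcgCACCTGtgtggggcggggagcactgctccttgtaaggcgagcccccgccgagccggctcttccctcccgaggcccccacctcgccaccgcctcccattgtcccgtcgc
MIR200CHG: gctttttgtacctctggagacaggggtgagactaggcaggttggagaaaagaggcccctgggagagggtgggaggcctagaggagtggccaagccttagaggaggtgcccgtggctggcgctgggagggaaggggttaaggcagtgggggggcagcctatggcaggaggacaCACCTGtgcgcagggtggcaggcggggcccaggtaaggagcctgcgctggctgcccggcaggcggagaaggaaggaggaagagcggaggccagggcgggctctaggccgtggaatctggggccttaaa
The MIR200BHG promoter held 2 E-boxes, which ended 97 and 53 bases before the start site. The MIR200CHG promoter held 1, which ended 73 bases before it. At least 1 CAGGTG on either strand was present in 20.6% of the 35116 RefSeq promoters of this length, and at least 2 in 3.49%. The looser pattern CANNTG, which includes the E-box, occurred only at these same places in both promoters and was present in 68.7% of all promoters. The bases G and C made up 72.7% of the MIR200BHG promoter and 65.7% of the MIR200CHG promoter, against a median of 58.7% over all promoters. The shares given here were not adjusted for this. The longest run of letters common to the promoters was ggacaCACCTGt, 12 bases around an E-box of each, and 6 of the 35116 promoters held this run on either strand. A match of letters is not a binding site. Whether a peak lies over the MIR200BHG promoter was not analysed here, since the genome sequence and gene positions of hg19 were not used. No list had a called peak in the window of MIR200C, the hairpin just downstream of the MIR200CHG promoter, and the nearest summit lay 227.9 kb from that window.

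In the chromosome 1 window, each induced library had 4 peaks and each uninduced library had 0. The 4 peaks of induced 1 each overlapped a peak of induced 2 by at least 1 bp, giving 4 sites, numbered here along the chromosome. Over the whole lists, 80.3% of the peaks of induced 1 overlapped one of induced 2, and 49.3% of those of induced 2 overlapped one of induced 1. None of the sites overlapped an uninduced peak, which was true of 99.4% of all peaks of induced 1 and 99.5% of those of induced 2. The uninduced lists give no value where there is no peak, so the level of the 4 sites without doxycycline is unknown.

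**Figure D1:**
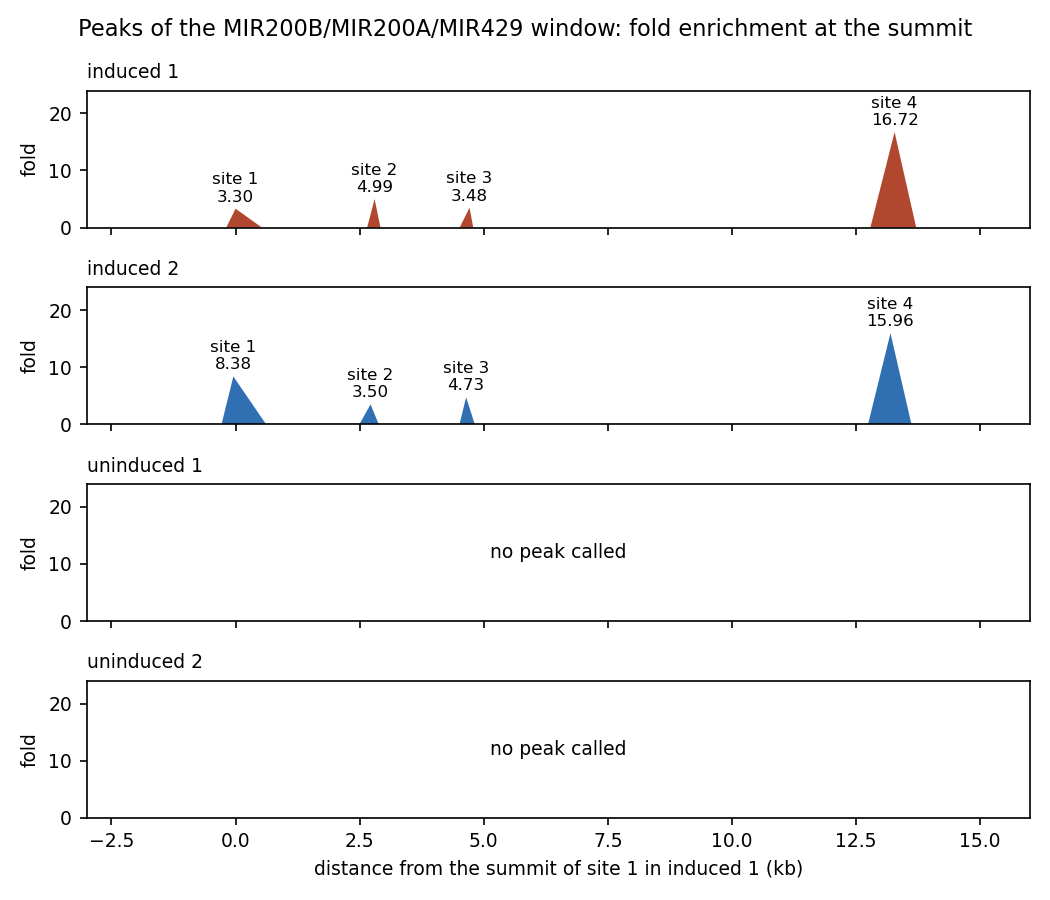
Fold enrichment of each peak in the chromosome 1 window, 1 panel per library, against distance in kb from the summit of site 1 in induced 1. Each triangle runs from the start to the end of a peak with its tip at the summit, and shows no read profile. Both induced libraries have 4 peaks at the same places, with site 4 the tallest, and neither uninduced library has a peak.

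Site 4 was the strongest by a wide margin. It was called at chr1:1111033-1111956 in induced 1 and at chr1:1110986-1111861 in induced 2. Its fold enrichment, the reads at the summit over the local background expected from the control, was 16.72 in induced 1 and 15.96 in induced 2. The number of extended reads covering the summit (the pileup, recovered from the listed fold and p) was 139 in induced 1 (95% Poisson interval 116.9 to 164.1) and 116 in induced 2 (95.9 to 139.1). Site 4 thus ranked 5 of 823 and 12 of 1338 by fold, and 12 and 18 by pileup. It carried 49.6% of the reads summed over the summits of the 4 sites in induced 1 and 46.6% in induced 2. The intervals cover counting error only.

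Site 1, the first of the 4 along the chromosome, differed most between the libraries in fold. It was called at chr1:1098057-1098773 in induced 1 and at chr1:1097961-1098859 in induced 2. Its fold was 3.30 in induced 1, rank 800 of 823, and 8.38 in induced 2, rank 144 of 1338. Only 2 of the 661 shared sites, site 1 included, had folds that differed by this factor of 2.54 or more, and the median factor over shared sites was 1.23. The pileups, not adjusted for depth, were closer, with 54 reads in induced 1 (40.6 to 70.5) and 68 in induced 2 (52.8 to 86.2). Their intervals overlapped, which is not a test of a difference between the libraries. By pileup the site ranked 346 of 823 in induced 1 and 106 of 1338 in induced 2. The background expected from the control, on the scale of the ChIP reads, was 15.4 reads in induced 1 and 7.23 in induced 2, a ratio of 2.13 where the median over shared sites was 1.28. Of the 661 shared sites, site 1 included, 42 had a background ratio at least this high, and 6 had a pileup ratio as low as that of site 1 or lower. The background of site 1 was the 11th highest of the 823 in induced 1, against a median of 8.40 for that list. The low fold in induced 1 therefore came with both a higher control background and fewer ChIP reads than in induced 2, although induced 1 was the deeper library by its genome-wide background (6.00 reads, against 4.15 in induced 2, if both were called with the same fragment length).

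Sites 2 and 3 lay below the median fold of the list in both libraries, each near the middle in one and near the low end in the other. Site 2 was called at chr1:1100895-1101163 in induced 1 and at chr1:1100739-1101128 in induced 2. It had a fold of 4.99 in induced 1 (rank 487) and 3.50 in induced 2 (rank 1223). Its pileups were 47 reads (34.5 to 62.5) and 31 reads (21.1 to 44.0), over backgrounds of 8.29 and 8.14. Site 2 was thus the second of the 4 by fold in induced 1 and the last in induced 2.

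Site 3 was called at chr1:1102759-1103032 in induced 1 and at chr1:1102755-1103063 in induced 2. Its folds were 3.48 in induced 1 (rank 785) and 4.73 in induced 2 (rank 721). Its pileups were 40 reads (28.6 to 54.5) and 34 reads (23.5 to 47.5), over backgrounds of 10.5 and 6.40. The order of sites 2 and 3 by fold turned between the libraries. Their pileup intervals overlapped within each library, and no test between the 2 sites was made. Site 3 in induced 1 had the lowest −log10 q of the window's peaks in either library, 4.56. Its 40 reads compare with 28 at the lowest pileup of that list, and the 31 reads of site 2 in induced 2 with 17 at the lowest of that list.

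**Figure D2:**
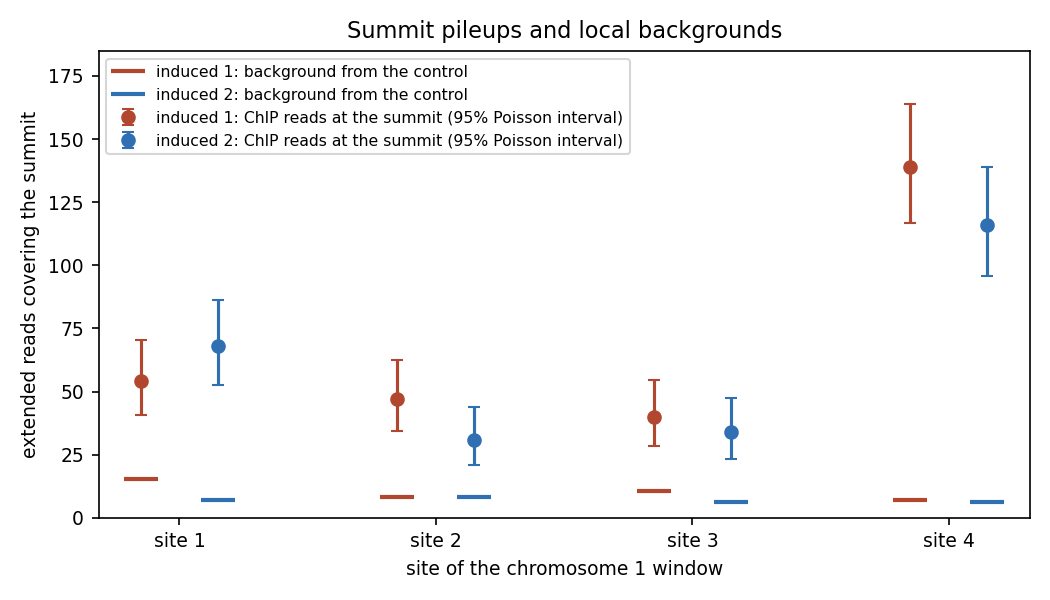
Extended reads covering the summit at each of the 4 sites, with induced 1 in red and induced 2 in blue. Points are pileups with 95% Poisson intervals and short bars are backgrounds from the control, both on the scale of the ChIP reads. Site 4 lies above the other sites in both libraries, and site 1 has the highest background, 15.4 reads, in induced 1.

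The 4 sites differed widely in fold within each library. In induced 1 the folds ran from 3.30 to 16.72 with a median of 4.24, and 1 of the 4 lay above the median of all its peaks, 5.33. In induced 2 they ran from 3.50 to 15.96 with a median of 6.56, and 2 of the 4 lay above the list's median of 4.91. A fold of at least 5 was reached by 1 site in induced 1 and by 2 sites in induced 2, where 59.1% and 48.3% of all peaks reached it. Site 4 alone reached it in both libraries.

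**Figure D3:**
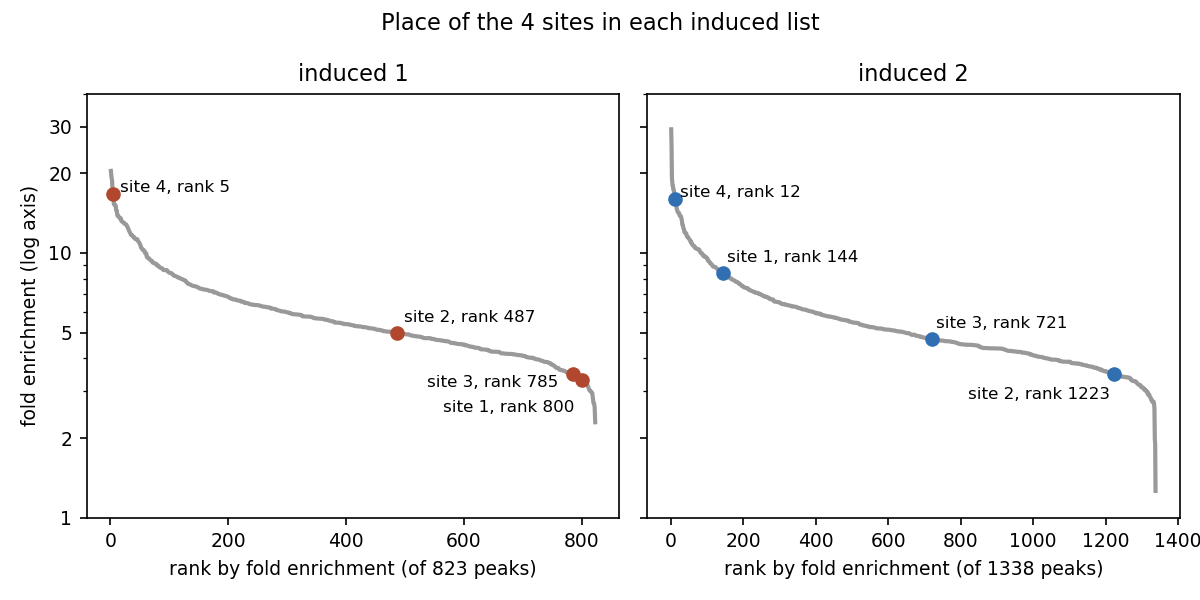
All peaks of each induced list ordered by fold enrichment (grey line, log axis), with the 4 sites as points. Site 4 is near the top of both lists, site 1 is at rank 800 of 823 in induced 1 and at 144 of 1338 in induced 2, and sites 2 and 3 are in the middle or at the low end.

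Width, which the choice of the members did not use, separated the sites into the same pairs in both libraries. Site 4 was 924 bp wide in induced 1 and 876 bp in induced 2, and site 1 was 717 and 899 bp, against list medians of 338 and 336.5 bp. By width, site 4 ranked 6 of 823 and 14 of 1338, and site 1 ranked 20 and 13. Site 1 was therefore among the widest peaks of induced 1 while among the weakest by fold. Its summit lay off centre in both libraries, at 26.1% and 26.5% of the width from the start, whereas that of site 4 lay at 52.8% and 51.6%. Site 2 was 269 and 390 bp wide and site 3 was 274 and 309 bp.

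The summits of the 2 induced libraries lay further apart at each of these sites than at the median shared site. They lay 45 bp apart at site 1, 82 bp at site 2, 69 bp at site 3 and 83 bp at site 4, while the median over the 661 shared sites was 23 bp. Over all shared sites, 26.5% had summits at least 45 bp apart. The summit of induced 2 had the lower coordinate at all 4 sites, and at 51.0% of all shared sites. Sites 1 to 3 formed a closer group, with 2801 and then 1913 bp between neighbouring summits in induced 1 (2764 and 1926 bp in induced 2). Site 4 followed after a gap of 8563 bp (8549 bp in induced 2). From the first start to the last end the sites covered a stretch of 13996 bp. In the RefSeq table the MIR200BHG gene, which spans the 3 hairpins, is followed by TTLL10-AS1 and TTLL10, a tubulin tyrosine ligase-like gene, and then by TNFRSF18. In GRCh38.p14 the MIR200BHG promoter begins at 1162627 and the mature miR-429 ends at 1169076, a shorter stretch than the 13996 bp covered by the sites. Unless the builds differ in length here, the 4 sites cannot all lie between that promoter and the end of the hairpins. Which of these genes each site lies in was not analysed here.

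Reads at the summits were compared between the induced libraries with an exact two-sided binomial test at each of the 661 shared sites, against the ratio over all of them, 1.23 (induced 1 over induced 2). The ratio was 0.794 at site 1 (95% interval 0.545 to 1.15), 1.52 at site 2 (0.943 to 2.47), 1.18 at site 3 (0.726 to 1.92) and 1.198 at site 4 (0.930 to 1.55). Site 1 was thus the only one of the 4 with fewer reads in induced 1. It had an unadjusted p of 0.0178 in the exact binomial test, the 8th lowest of the 661, and did not pass Benjamini-Hochberg adjustment over all shared sites (adjusted p = 1.0). No shared site passed the adjustment (0%), and 19 of 661 (2.87%) had an unadjusted p under 0.05 in this binomial test. Peaks called in only 1 of the induced lists, where the libraries may differ most, were not tested, so these counts do not measure how alike the whole lists are. The unadjusted p values of sites 2, 3 and 4 in the same exact binomial test were 0.426, 0.907 and 0.85. The genome-wide backgrounds gave a second estimate of relative depth, 1.45. Against it the ratio at site 1 was 0.549 of the expected one, with an unadjusted p of 0.00117 and an adjusted p of 0.0915 in the exact binomial test, and 5 of the 661 shared sites (0.756%) passed.

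**Figure D4:**
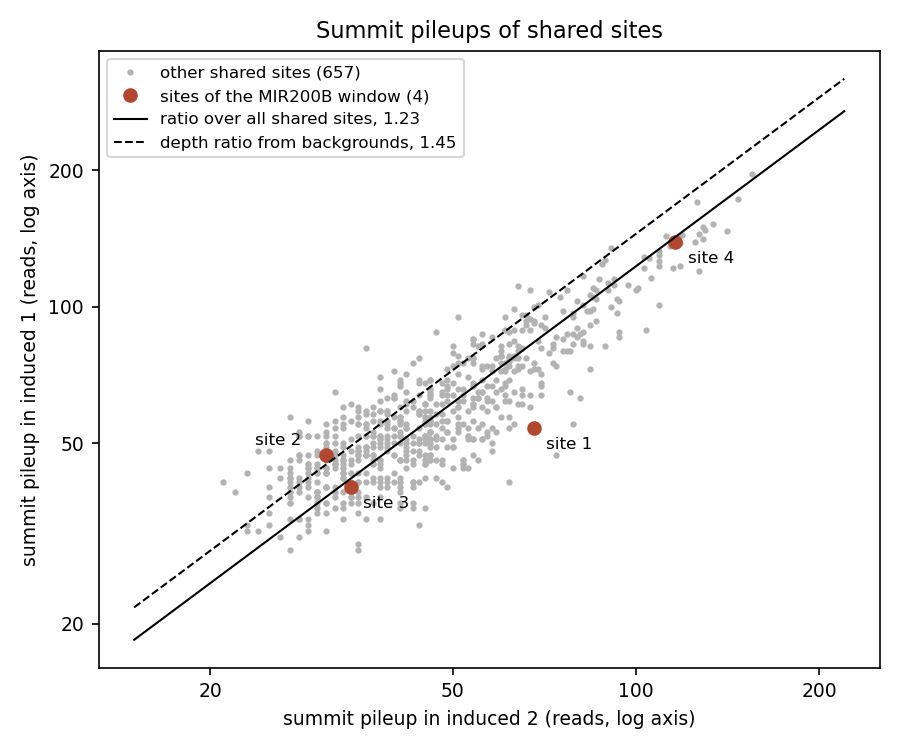
Summit pileups of the 661 shared sites in induced 1 against induced 2 (log axes), with the 4 sites in red, the ratio over all shared sites as a solid line and the depth ratio from backgrounds as a dashed line. Sites 2, 3 and 4 lie among the other shared sites, with sites 3 and 4 near the solid line and site 2 near the dashed line. Site 1 lies below both lines, at 54 against 68 reads.

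The number of summits in the window is part of what chose it, and the following counts only describe the lists. Of the stretches of 25000 bp that begin at one of the 661 shared summits, 39 held at least 2, 7 at least 3 and 2 at least 4 shared summits. One of these 2 is the stretch at MIR200B, and the other lies on chromosome 11 from 2225223 to 2232696. The stretches can overlap, so the counts are not numbers of separate places, and both of these places count more than once among the 7. The chromosome 11 sites were more even, where induced 1 had folds between 4.23 and 6.01 and induced 2 between 3.78 and 9.61, and their summits summed to 209 and 198 reads against 280 and 249 at the 4 sites described here. No test was made of this difference. The nearest peaks outside the chromosome 1 window were a strong shared peak whose summit lay 17.8 kb before it in both libraries (folds of 11.1 and 11.46) and a peak 93.0 kb after it (5.29 and 11.88).

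The window of MIR200C and MIR141 on chromosome 12 held 0 peaks in each of the 4 lists. In RefSeq this locus lies between PTPN6, which encodes a protein tyrosine phosphatase, and PHB2, which encodes a prohibitin. The nearest peak after the window was shared by the induced libraries and had its summit 227.9 kb from it, with folds of 5.98 and 5.14. The nearest before it was 575.3 kb away in induced 1 and 5356.9 kb away in induced 2. Chromosome 12 held 29 peaks in induced 1, 56 in induced 2 and 0 in either uninduced list. The lists hold called peaks only, so a weaker signal at MIR200C and MIR141 was not detectable in them and is not shown to be absent. The contrast between the loci, 4 shared sites against 0, rests on windows chosen with these peaks known and was not tested.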

How the data were processed

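The series holds 4 anti-HA ChIP-seq libraries, 2 induced and 2 uninduced. MACS2 2.1.1.20160309, BWA 0.7.15 and Trimmomatic 0.36 are named, with build hg19, in the submitters' processing notes. The sources used here do not give the calling threshold or which control each library had. The authors deposited 1 peak list per library, with 823, 1338, 5 and 11 peaks. Each deposited line gives a fold ratio, a −log10 p, a −log10 q and a score, which was 10 times the −log10 q rounded down. These are the authors' values and describe peaks within a list. The lists give no read totals, so depth is unknown from them directly.

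Whole pileups were recovered (Python 3.11.15, scipy 1.17.1) from fold, (pileup + 1) / (background + 1), and the Poisson p, within 0.0005 of the listed −log10 p for every peak. In induced 1 pileups had been scaled down by 1.40 before calling, and the values printed are unscaled. On simulated peaks of both kinds 100.0% of pileups were recovered. These peaks held on average more reads than the median peaks of the induced lists. In the scaled kind most simulated backgrounds were whole numbers, and the recovery sets its scale from whole backgrounds. Real backgrounds need not be whole, such as 5.93 as called at site 2 in induced 1. The simulation therefore does not show how well pileups are recovered where few backgrounds are whole. Peaks overlapping by 1 bp were shared, keeping the largest overlap. The replicate comparison is an exact binomial test with Benjamini-Hochberg adjustment. It takes reads as independent molecules and compares these 2 libraries with counting error as its only error. The spread between replicates was not estimated. Its ratio intervals are exact (Clopper-Pearson). On simulated sites it called 100.0% of the 200 changed 3-fold and 0.0% of the 400 unchanged ones. The unchanged simulated sites held on average more reads than the median peaks of the induced lists, 51 and 35, and varied by counting error only. The simulation therefore does not show how the test performs at the depth of these lists or on smaller changes, such as the 0.646 of the overall ratio at site 1.

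Every peak of either window is named. Members, lists and tests were chosen with earlier results of these data known. Alternatives tried were filters on fold and q, other window and overlap rules, left-out libraries, and another depth ratio.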

Additional observations from a re-analysis of the deposited data

How the results depend on the processing

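A fold of at least 5 reduced the peaks of the window in induced 1 to 1 and in induced 2 to 2, from 4 in each, and the shared sites from 4 to 1. A −log10 q of at least 5 left 3 and 4 peaks. Counting any overlap with the window, or widening the windows by 10 kb on each side, left 4 peaks in each induced list and 0 in each uninduced list. The 4 sites were shared also with summits at most 100 bp apart and with an overlap of at least 50% of each peak. The median fold of the 8 peaks, 4.86, was 4.24 to 6.56 with 1 induced library left out. With 4, 4, 0 and 0 peaks, the difference of the means, 4.0, can take no other value with 1 library left out or under a replicate block, so neither setting says anything about its stability. Nothing states that libraries with the same number shared a culture or day. Against the depth ratio of the genome-wide backgrounds, the number of shared sites passing adjustment rose from 0 to 5, none of them in the window. The reads summed over the 4 sites were then 0.777 of those expected in induced 1, a value for which no interval was computed. With the ratio of all shared sites it was 0.915 (95% interval 0.769 to 1.09), and this interval does not apply to 0.777. All shared sites together also had fewer reads in induced 1 than the depth ratio expects, with a ratio of 1.23 against 1.45. How far the summed reads fall short thus depends on the depth estimate. The ratio at each site kept its direction. The planned counts of E-boxes in peaks and of listed genes with a peak near their start were not run, since no hg19 sequence or gene positions were used.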
